A study of Mus musculus with 6 samples.

Results

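The genes of the 4 Hox clusters were compared between testes of Arid4bSCKO mice and of control mice. The members were the rows of the gene table whose symbol is Hoxa, Hoxb, Hoxc or Hoxd followed only by a number, which gave 39 of 22320 genes: 11 Hoxa, 10 Hoxb, 9 Hoxc and 9 Hoxd genes. Antisense and opposite-strand transcripts were not members. The study asked how ARID4B, a chromatin protein that binds the retinoblastoma protein, acts through Sertoli cells on the niche in which the first spermatogonial stem cells form.

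Arid4bSCKO mice had 1 null and 1 floxed allele of Arid4b together with Amh-cre (Arid4b-/Flox; Amh-cre). Control mice had 1 wild-type and 1 floxed allele with the same transgene (Arid4b+/Flox; Amh-cre). Both groups were on a hybrid C57BL6/J and 129/SvEv strain background, and testes were taken at postnatal day 1.5. Each group had 3 pools of 4 testes. Amh-cre acts in Sertoli cells, whereas RNA came from the whole testis, and the null allele was present in every other cell of the Arid4bSCKO mice. In such bulk RNA, fewer cells of a type and less RNA per cell cannot be told apart. Nothing in the labels says that the pools came from separate litters, so p-values measure only the spread between these pools.

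Hox genes encode homeodomain transcription factors and stand in clusters that arose by duplication. Within a cluster they are numbered so that the same number in different clusters marks paralogs, and low numbers are used towards the head and high numbers towards the tail, an order known as colinearity. The testis forms beside the mesonephros in the trunk, and Hox genes of the high numbers are known for patterning the urogenital tract, the hind limbs and the lower spine. Polycomb complexes keep Hox genes silent and MLL complexes keep them active, and HOX proteins bind DNA together with PBX and MEIS cofactors of the TALE class.

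The Hoxa cluster lay on chromosome 6, and the Hoxb cluster on chromosome 11 between 96194361 and 96368253. The Hoxc cluster lay on chromosome 15 between 102921131 and 103036852, and the Hoxd cluster on chromosome 2 between 74668310 and 74765142 (mm10, the same assembly as GRCm38). Each spanned from 96.8 kb (Hoxd) to 173.9 kb (Hoxb).

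The 250 bases before the transcript start are shown for 4 Hoxd genes, because they stand within 1 cluster and hold the highest and some of the lowest levels measured. Hoxd9 and Hoxd10 were the most abundant Hox transcripts, Hoxd12 was close to silent, and Hoxd1 had the smallest p-value of all members. Sequences are from RefSeq (GRCm38.p6), read 5′ to 3′ on the strand of the gene, and capitals mark each CG dinucleotide.
Hoxd9, chr2:74697513-74697762, plus strand: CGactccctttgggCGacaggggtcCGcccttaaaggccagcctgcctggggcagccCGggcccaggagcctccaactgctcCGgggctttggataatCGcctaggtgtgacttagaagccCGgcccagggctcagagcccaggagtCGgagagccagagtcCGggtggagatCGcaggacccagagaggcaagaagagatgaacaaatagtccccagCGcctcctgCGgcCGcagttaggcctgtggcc
Hoxd10, chr2:74691641-74691890, plus strand: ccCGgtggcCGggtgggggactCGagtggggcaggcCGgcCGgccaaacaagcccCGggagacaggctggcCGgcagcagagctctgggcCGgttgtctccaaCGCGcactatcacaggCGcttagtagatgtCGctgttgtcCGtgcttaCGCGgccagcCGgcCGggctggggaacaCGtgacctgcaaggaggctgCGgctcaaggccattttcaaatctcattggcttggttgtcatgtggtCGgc
Hoxd12, chr2:74674763-74675012, plus strand: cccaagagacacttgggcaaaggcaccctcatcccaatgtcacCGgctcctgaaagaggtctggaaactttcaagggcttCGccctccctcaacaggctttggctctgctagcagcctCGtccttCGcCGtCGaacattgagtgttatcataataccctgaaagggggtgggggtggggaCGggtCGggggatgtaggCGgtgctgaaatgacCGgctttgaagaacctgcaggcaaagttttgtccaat
Hoxd1, chr2:74762730-74762979, plus strand: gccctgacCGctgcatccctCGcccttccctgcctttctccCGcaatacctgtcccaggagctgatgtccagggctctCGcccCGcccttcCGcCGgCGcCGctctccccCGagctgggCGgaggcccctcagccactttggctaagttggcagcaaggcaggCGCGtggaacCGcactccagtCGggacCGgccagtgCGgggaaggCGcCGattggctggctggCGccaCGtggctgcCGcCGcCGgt

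The window before Hoxd9 held 13 CG dinucleotides, that before Hoxd10 held 20, that before Hoxd12 held 10 and that before Hoxd1 held 24. The abundant and the scarce genes therefore did not separate by CG count. RefSeq had 24 such windows for 22 of the 39 members. Their median CG count was 12.5, against 6 over 32851 promoters, and 62.5% of them held 10 or more CG dinucleotides, against 37.8% of all. Both strands were searched for 3 short motifs. CCAAT was found in 14 of the 24 windows (33.85% of all promoters hold it). TATAAA was found in 4, against 12.37% of all. TGATNNAT, a form of the paired HOX and PBX site, was found in 4, those of Hoxa2, Hoxb1, Hoxb8 and 1 of the 2 Hoxd11 starts, against 7.68% of all. A match of these letters is a description of the sequence and not a measured binding site.

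The deposited table holds group means and no value per library. For most genes the reads in the 3 libraries of each group could nevertheless be worked back, since only 1 set of whole read counts gave the deposited means, p-value and ratio of medians together. This held for 18573 genes and for 36 of the 39 members. Hoxc12 had no read in any library, and Hoxd3 and Hoxd4, which overlap each other in the genome, were not resolved, so these 2 are given as the authors' group means. The libraries of a group are numbered by their scaling, from the smallest to the largest worth of 1 read, and these numbers are not the replicate numbers of the labels. One read was worth 1.28, 1.30 and 1.45 normalized counts in Arid4bSCKO libraries 1 to 3, and it was worth 1.20, 1.23 and 1.25 in control libraries 1 to 3.

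Arid4b itself was read 326, 273 and 318 times in Arid4bSCKO and 986, 937 and 934 times in control libraries. The level in Arid4bSCKO testes was 35.1% of control, with a difference of -1.51 log2 (95% interval -1.82 to -1.21) and an adjusted p of 2.23e-05 by the moderated test in limma. Recovered reads came to between 9.08 and 10.8 M (M, mega) per library and made up 55.2% of the summed Arid4bSCKO means and 56.2% of the summed control means. Pairs of libraries correlated at 0.948 to 0.992 over the recovered genes at a mean level of at least 5. On the same genes the first principal component, with 66.7% of the variance, separated the groups.

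The Hoxd cluster dominated the Hox transcripts of these testes. Per kilobase of transcript, it held 73.2% of the summed Hox level in control testes and 69.5% in Arid4bSCKO testes. The Hoxc cluster held 16.4% and 17.9%, the Hoxb cluster 7.52% and 9.34%, and the Hoxa cluster 2.91% and 3.17%. Hoxd8, Hoxd9 and Hoxd10 alone made up 64.9% of the summed level in control testes and 60.5% in Arid4bSCKO testes. These shares are descriptions, with no test.

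Along the Hoxd cluster the level was low at the anterior end, highest at Hoxd9 and close to nothing at the posterior end. In control testes Hoxd1 stood at 5.03 normalized counts per kb, Hoxd3 at 76.6, Hoxd4 at 50.8, Hoxd8 at 340.0, Hoxd9 at 722 and Hoxd10 at 411. Hoxd11 followed at 52.5, Hoxd12 at 0.485 and Hoxd13 at 3.39. Hoxd9, Hoxd10 and Hoxd11 pattern the lower spine and the limbs, and Hoxd11 acts with its paralogs in the kidney.

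Next in order came 3 Hoxc genes, Hoxc6 at 112, Hoxc8 at 102 and Hoxc4 at 84.6 normalized counts per kb in control testes. Their order is not resolved, because the control libraries of Hoxc8 (91.9 to 112) reached into the range of Hoxc6 (112 to 113) and of Hoxc4 (78.4 to 97.5). By contrast the ranges of Hoxd9 (695 to 763), Hoxd10 (406 to 418) and Hoxd8 (317 to 356) did not touch each other. The most abundant Hoxb gene was Hoxb9 at 60.7, whose libraries (51.3 to 74.6) overlapped those of Hoxd11 (40.6 to 62.1). In control testes no Hoxa gene was above 12.3, the value of Hoxa4.

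Apart from Hoxd11, genes of groups 11 to 13 stood at 4.96 normalized counts per kb or less in control testes. Hoxa13, a gene of the genital tubercle and the limb tips, was read 1, 1 and 1 times in Arid4bSCKO and 0, 0 and 3 times in control libraries. Hoxa11, which with Hoxa10 is known for its role in the reproductive tract, was read 2, 2 and 0 times against 1, 3 and 1 times. Hoxc11 was read 1, 0 and 2 times against 0, 1 and 0 times. Hoxd12 was read 1, 0 and 0 times against 1, 1 and 1 times. At these counts a difference of any modest size was not detectable. Hoxb13, known for the prostate, had that highest value.

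**Figure D1:**
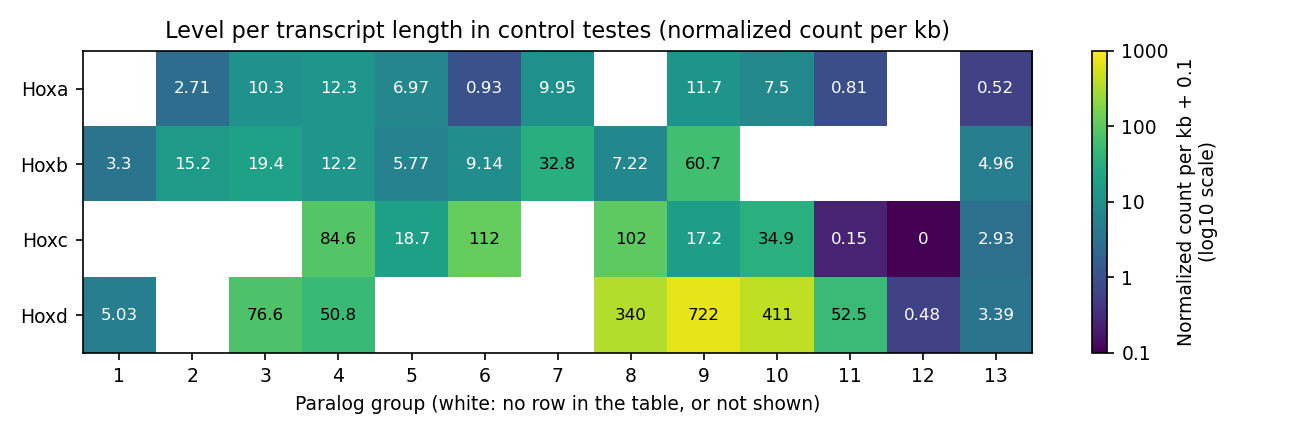
Level per transcript length of the Hox genes shown in control testes, as normalized counts per kb; rows are the clusters, columns the paralog groups, and the colour is on a log10 scale. Hoxd8, Hoxd9 and Hoxd10 hold 340.0, 722 and 411 counts per kb in a block, and the columns for groups 11 to 13 are dark except for Hoxd11.

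The order of Hox levels was close to the same in both groups. Over the 35 members with a mean level of at least 1 on the log2(normalized count + 1) scale, the control and the Arid4bSCKO levels had a Spearman correlation of 0.983 across genes, which is a description, since these genes share libraries. Between single libraries of different groups, over 36 members, it ran from 0.950 to 0.976. Within the Arid4bSCKO group it ran from 0.950 to 0.974, and the ranges across and within the groups overlapped. Within the control group it ran from 0.969 to 0.970.

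No Hox gene passed the tests between the groups. None of the 39 members had an FDR below 0.05 in the authors' deposited table, where 0.26% of all 22320 genes did. None of the 35 members at a level of at least 1 passed the moderated test in limma at an adjusted p of 0.05, where 13.8% of the 19095 genes tested did. With the unadjusted p of the deposited table, 2 of the 35 were below 0.05, Hoxb5 and Hoxd1, where 24.1% of the tested genes were. In 5 of 36 members the libraries of the groups did not overlap: Hoxb4 and Hoxb5 lay higher in Arid4bSCKO testes and Hoxc13, Hoxd1 and Hoxd10 lower. Over all recovered genes 30.2% did not overlap.

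The background varied with level. Of the 37 members with known reads, 11 had fewer than 10 in every library and 7 had more than 100 in every library. At a level of 1 to 3, an unadjusted p below 0.05 was found for 1 of 8 members and for 186 of 2634 genes. At 3 to 5 it was found for 1 of 10 members and 298 of 2371 genes, and at 5 to 7 for 0 of 8 and 450 of 2346. At 7 to 11 it was found for 0 of 9 members and for 2661 of 9131 genes. These counts of members are small, and none was tested against its background.

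The differences of the 35 members, as Arid4bSCKO less control, ran from -1.66 to 0.61 log2 with a median of 0.04, and 21 were positive and 14 negative. Over all tested genes the median was -0.035 log2, with 8749 positive and 10346 negative. By cluster the median was 0.12 for Hoxa, 0.11 for Hoxb, 0.04 for Hoxc and -0.12 for Hoxd. By position it was 0.07 for groups 1 to 3, 0.10 for groups 4 to 8 and -0.05 for groups 9 to 13. The Spearman correlation of the difference with the paralog number was -0.149 across the 35 genes, a description.

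A miss of the threshold does not show that the levels were alike, so the 95% intervals were set against a change of 1 log2, or 2-fold. In 14 of the 35 members the whole interval lay between -1 and 1 log2. These were Hoxa3, Hoxb1, Hoxb3, Hoxb7, Hoxb8, Hoxc4, Hoxc6, Hoxc8, Hoxc9, Hoxd3, Hoxd8, Hoxd9, Hoxd10 and Hoxd11. The same held for 63.5% of all tested genes. Each interval rests on the gene's own spread between pools, which can fall below that of counting reads alone. Hoxb1 was read only 6, 4 and 4 times against 5, 5 and 7 times. An index of its spread over that of counting alone was 0.242, so its interval is too narrow and a 2-fold change cannot be set aside. For the 21 members not listed, a 2-fold change in at least 1 direction lay inside the interval. The median width of the interval was 1.67 log2 for the members and 0.85 for all tested genes, which as a whole stood at higher levels. At a level of 1 to 3 it was 3.63 for the members against 3.69 for all genes, at 3 to 5 it was 1.81 against 2.20, at 5 to 7 it was 1.48 against 1.35 and at 7 to 11 it was 0.54 against 0.61. In the same order of levels, the interval lay within 1 log2 for 1 of 8 members and 65 of 2634 genes, for 2 of 10 and 380 of 2371, for 4 of 8 and 1121 of 2346, and for 7 of 9 and 8118 of 9131.

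**Figure D2:**
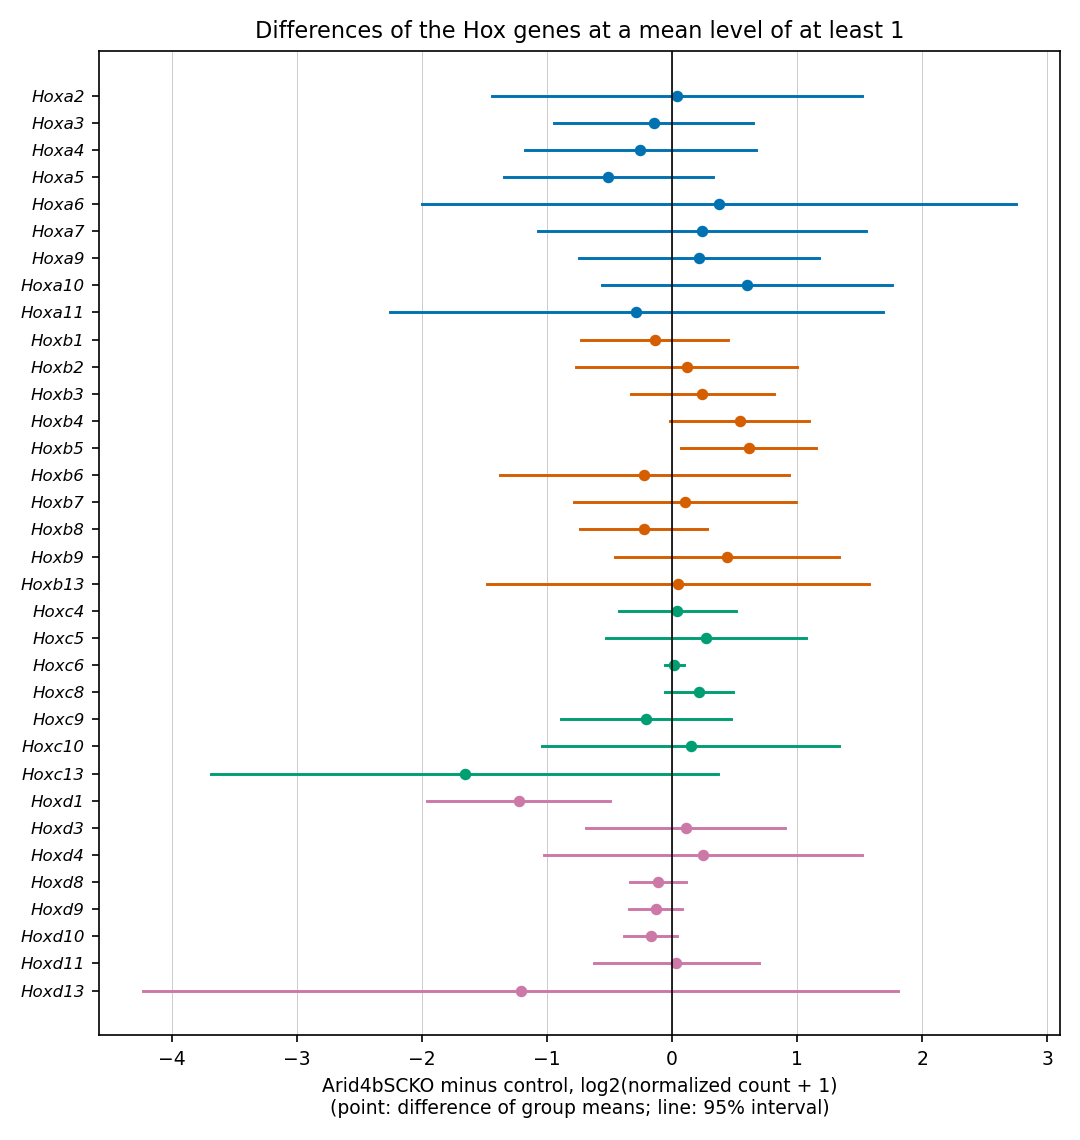
Difference of the group means on the log2(normalized count + 1) scale, Arid4bSCKO less control, for the Hox genes shown at a mean level of at least 1, coloured by cluster; lines are 95% intervals worked back from the deposited p-values. The intervals of Hoxb5 and Hoxd1 alone leave out 0, and neither gene passed a test adjusted over all genes. Both genes varied less between libraries than counting alone would give, so these intervals are too narrow.

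In the Hoxd cluster the 3 abundant genes were each lower in Arid4bSCKO testes by a small and unresolved amount. Hoxd9 stood at 1536, 1330 and 1360 normalized counts in Arid4bSCKO and at 1630, 1516 and 1484 in control libraries. The highest Arid4bSCKO library lay within the control range. The difference of -0.13 log2 (95% interval -0.35 to 0.08) had an adjusted p of 0.354 by the moderated test in limma.

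Hoxd8 stood at 900.1, 791 and 792 against 916, 835 and 939 normalized counts, and the groups overlapped. Its difference was -0.12 log2 (95% interval -0.34 to 0.11). Hoxd10, which patterns the hind limb and its motor neurons, stood at 713, 597 and 679 against 759, 740.2 and 738. Here every Arid4bSCKO library lay below every control library, and the difference of -0.17 log2 (95% interval -0.39 to 0.04) had an adjusted p of 0.275 in limma. For these 3 genes a 2-fold fall lay outside the interval.

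Hoxd1, the anterior end of the cluster, had the smallest p-value among the members. It was read 4, 2 and 2 times in Arid4bSCKO libraries and 7, 9 and 7 times in control libraries. All 3 Arid4bSCKO libraries lay below all control libraries, at 5.12, 2.61 and 2.91 against 8.41, 11.1 and 8.77 normalized counts. The difference of -1.23 log2 (95% interval -1.96 to -0.50) had, in the authors' deposited table, an FDR of 0.131 and an adjusted p of 0.112 by the moderated test in limma. It rests on 2 to 9 reads per library. The index of the spread of Hoxd1 over that of counting alone was 0.293, so the interval is narrower than the reads allow.

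Hoxd3 and Hoxd4, for which only the authors' means were at hand, differed by 0.11 log2 (95% interval -0.69 to 0.90) and 0.25 log2 (95% interval -1.02 to 1.52). Hoxd11 was read 47, 38 and 49 times against 53, 56 and 36 times and differed by 0.03 log2. Hoxd13, a gene of the digits and the genital tubercle, was read 9, 0 and 3 times against 8, 8 and 5 times. Its Arid4bSCKO libraries reached from no read to above the control range, and the interval of its difference ran from -4.23 to 1.81 log2.

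In the Hoxc cluster the abundant genes differed little. Hoxc6, a gene of the thoracic segments, stood at 184, 173 and 182 normalized counts in Arid4bSCKO and at 179, 177 and 177 in control libraries. Its difference of 0.02 log2 had the narrowest interval of the members, from -0.06 to 0.09. An index of its spread between libraries over that of counting alone was 0.073, so the interval is narrower than the reads allow. Hoxc8 stood at 230.5, 228 and 205 against 209, 191 and 172, with overlapping groups. Its difference was 0.22 log2 (95% interval -0.05 to 0.49), and the adjusted p was 0.349 by the moderated test in limma.

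Hoxc13, known for hair and nails, had the lowest difference of all tested members. It was read 2, 3 and 0 times in Arid4bSCKO and 5, 8 and 5 times in control libraries. The groups did not overlap, the difference was -1.66 log2 (95% interval -3.69 to 0.37), and the adjusted p was 0.127 by the moderated test in limma. Without library 3 of the Arid4bSCKO group, which had no read, the difference was -0.97 log2 and the adjusted p was 0.327. Hoxc4, Hoxc5, Hoxc9 and Hoxc10 had differences between -0.21 and 0.27 log2, and the groups overlapped in each. Hoxc10 varied widely within the control group, with 80, 64 and 31 reads.

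In the Hoxb cluster 7 of 10 differences were positive, and the 2 members whose libraries did not overlap stand next to each other. Hoxb4, known for its action in blood stem cells, was read 36, 29 and 38 times in Arid4bSCKO and 30, 26 and 21 times in control libraries, or 46.1, 37.8 and 55.2 against 36.0, 32.0 and 26.3 normalized counts. The difference was 0.54 log2 (95% interval -0.02 to 1.10), and the adjusted p was 0.209 by the moderated test in limma.

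Hoxb5, read 12, 16 and 11 times against 8, 11 and 8 times, stood at 15.4, 20.9 and 16.0 against 9.61, 13.6 and 10.03 normalized counts. In reads its groups touch at 11, and they separate only after scaling. Its difference was 0.61 log2 (95% interval 0.07 to 1.15). Its index of spread over that of counting alone was 0.37, so this interval too is narrower than the reads allow. In the authors' deposited table the FDR was 0.202, and it had an adjusted p of 0.293 by the moderated test in limma.

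Hoxb9, the most abundant Hoxb gene, varied widely between libraries. It stood at 154, 206 and 302 normalized counts in Arid4bSCKO and at 132, 192 and 150.4 in control libraries, and the groups overlapped. Its difference was 0.44 log2 (95% interval -0.46 to 1.34), with an adjusted p of 0.247 by the moderated test in limma. Without library 1 of the Arid4bSCKO group the difference was 0.67 log2 and the adjusted p was 0.0392. Without library 3 of that group they were 0.19 log2 and 0.661, so the size of the difference depends on single libraries.

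Hoxb3 was read 45, 54 and 34 times against 41, 48 and 33 times and differed by 0.24 log2 (95% interval -0.33 to 0.81). The anterior Hoxb1, a gene of the hindbrain, was read 6, 4 and 4 times against 5, 5 and 7 times. The other Hoxb genes, Hoxb2, Hoxb6, Hoxb7, Hoxb8 and Hoxb13, had differences from -0.23 to 0.12 log2 with overlapping groups.

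In the Hoxa cluster no member had separate groups. Hoxa9, the Hoxa gene of the highest log2 level, known from blood progenitors and leukaemia, was read 43, 27 and 30 times against 35, 41 and 20 times. Its difference was 0.22 log2 (95% interval -0.74 to 1.18). Hoxa3, which acts in the pharyngeal arches, was read 13, 21 and 21 times against 21, 26 and 19 times, a difference of -0.15 log2 (95% interval -0.94 to 0.65).

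Hoxa5, known for the lung, had the smallest unadjusted p of the cluster. It was read 6, 6 and 8 times against 10, 15 and 8 times, and the difference of -0.51 log2 (95% interval -1.35 to 0.33) had an adjusted p of 0.452 by the moderated test in limma. Hoxa10, known for its part in the uterus and in the descent of the testis, was read 26, 22 and 9 times against 13, 14 and 10 times. In reads both of its extremes lay in the Arid4bSCKO group. In normalized counts the libraries stood at 33.3, 28.7 and 13.1 against 15.6, 17.2 and 12.5, with the lowest in control. The interval of its difference ran from -0.56 to 1.76 log2. Hoxa2, Hoxa4, Hoxa6, Hoxa7 and Hoxa11 had differences from -0.29 to 0.37 log2.

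**Figure D3:**
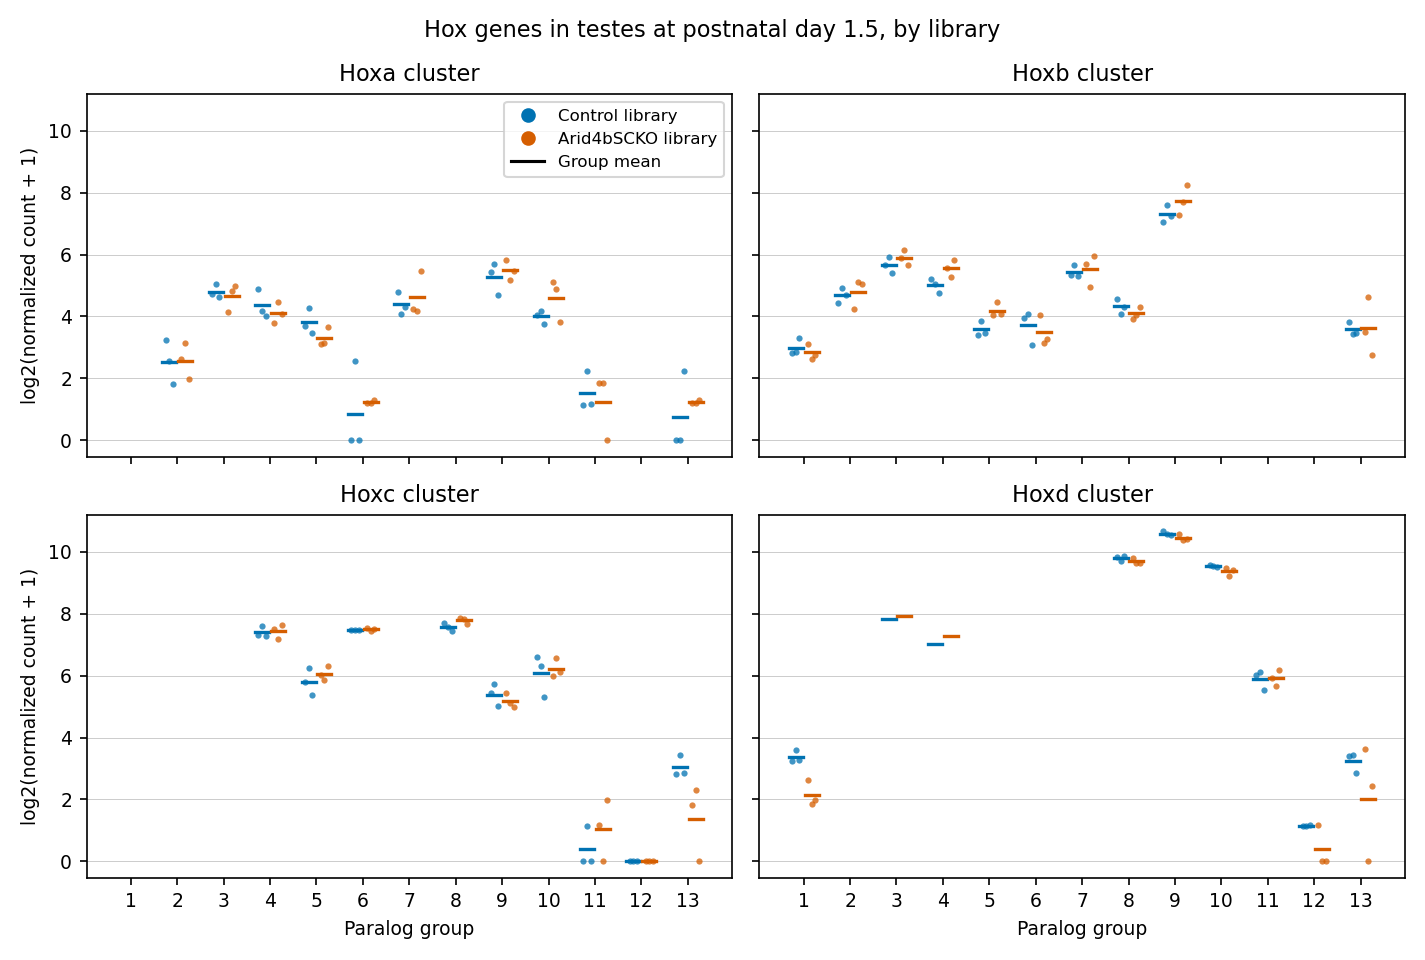
Level of the Hox genes shown in each library, as log2(normalized count + 1), by cluster and paralog group; points are the recovered libraries (3 control, 3 Arid4bSCKO), bars are group means, and Hoxd3 and Hoxd4 have means only. The points of the groups do not overlap for Hoxd1, Hoxc13, Hoxd10, Hoxb4 and Hoxb5, and overlap for the other recovered genes.

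Summed over the recovered members of a cluster, the groups overlapped in all 4. The Hoxd sum was 3228, 2771 and 2910 normalized counts in Arid4bSCKO and 3388, 3182 and 3222 in control libraries. The Hoxb sum was 389, 451 and 555 against 343, 424 and 337, and its highest libraries came from the Arid4bSCKO group. All 36 members together had 4353 ± 219 normalized counts in Arid4bSCKO and 4498 ± 182 in control testes (SD, 3 libraries each).

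**Figure D4:**
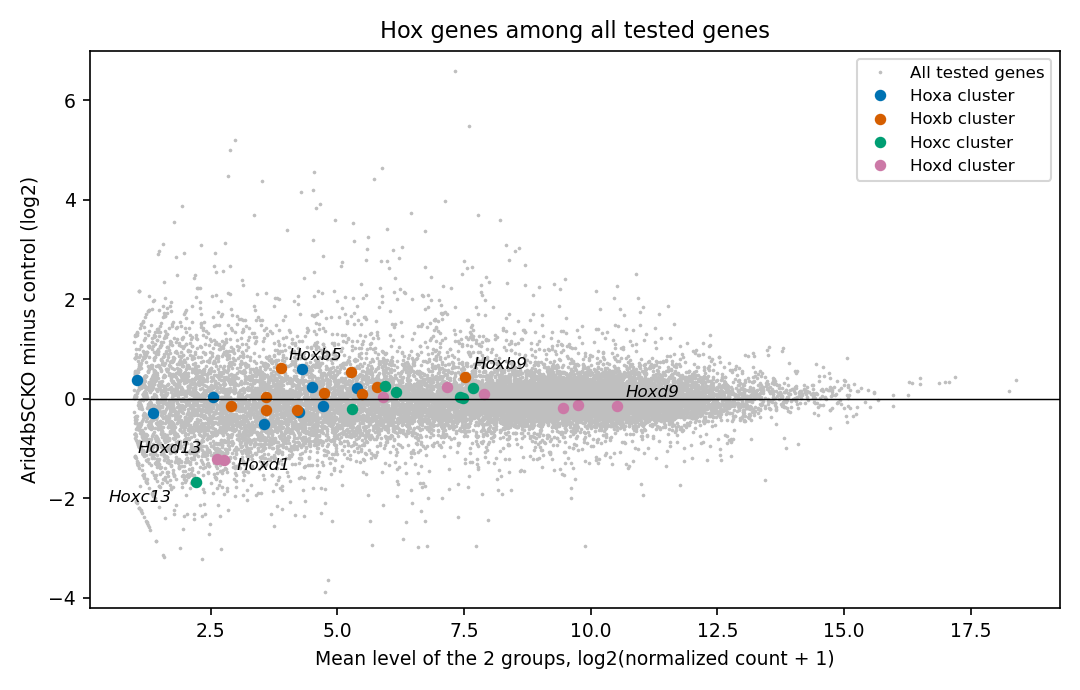
Difference of the group means (log2, Arid4bSCKO less control) against the mean level of the 2 groups for the 19095 tested genes (grey) and the tested Hox genes shown (coloured by cluster). The Hox genes above a level of 5 lie between -0.21 and 0.54, and the members farthest below 0, Hoxc13, Hoxd1 and Hoxd13, have levels under 3.

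Genes within and beside the clusters were also compared. Of the other transcripts inside the clusters at a level of at least 1, none passed the moderated test in limma, where 13.8% of all tested genes did. Hotair, AK002860 and 2700086A05Rik were below that level and were not tested. Most of those tested were scarce: after Gm53 the most abundant was BC060302, at a mean level of 5.53. Scarce genes passed less often, with 42 of 2634 genes at a level of 1 to 3 and 101 of 2371 at 3 to 5. Gm53 in the Hoxb cluster came nearest, at 330.4, 220.3 and 234 against 331, 410.1 and 357 normalized counts, a difference of -0.50 log2 and an adjusted p of 0.0652. Hotair, the antisense RNA of the Hoxc cluster, was read 1, 0 and 1 times in Arid4bSCKO libraries and in no control library. Hoxd3os1, on the opposite strand of Hoxd3, differed by 0.01 log2. How the authors' counting used strand was not stated in the sources at hand, so reads of overlapping sense and antisense transcripts may not be separated.

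Among the 24 flanking named genes, 3 on each side of each cluster, 1 passed the moderated test in limma, where 13.8% of all tested genes did. Snx10, a sorting nexin gene that lies 564.7 kb before the Hoxa cluster, rose to 630.0, 776 and 1105 normalized counts from 379, 429 and 424 in control libraries. Its difference was 0.99 log2 (95% interval 0.31 to 1.66), with an adjusted p of 0.00507. The nearest flank on that side, Skap2, lay at 9.52 against 9.25 log2, with an adjusted p of 0.17. Cbx5, a heterochromatin protein gene beside the Hoxc cluster, differed by -0.22 log2 (95% interval -0.28 to -0.16) with an adjusted p of 0.0708 in limma.

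Genes whose proteins act on Hox genes or with HOX proteins, and the related homeobox genes outside the clusters, were compared as well. Of 69 tested genes in 5 lists, 8 (11.6%) passed the moderated test in limma, all of them lower, a share near the 13.8% of all tested genes. None of the 8 passed with no trend of the spread and no robust fitting. The share of all genes past that setting was not counted, so this does not set the 8 apart. Of 9 TALE cofactors, 0 rose and 2 fell by the moderated test in limma, and the median difference was -0.17 log2. Of 29 Polycomb genes, 0 rose and 3 fell, with a median of -0.13 log2, and of 16 genes of MLL complexes and H3K27 demethylases, 0 rose and 1 fell, with a median of -0.14 log2. Of 12 genes of signals known to set Hox expression, 0 rose and 2 fell, with a median of -0.04 log2. Over all tested genes the median was -0.035 log2.

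Among the Polycomb genes, Suz12, a core subunit of the H3K27 methyltransferase complex, fell from 2980, 2808 and 2727 normalized counts in control to 2108, 1987 and 1799 in Arid4bSCKO libraries. Its difference was -0.53 log2 (95% interval -0.74 to -0.32), with an adjusted p of 0.0028 in limma. Rybp, a subunit of variant Polycomb complexes, fell from 4399, 3784 and 4133 to 3036, 2810 and 2221, with a difference of -0.62 log2 and an adjusted p of 0.0056. Ezh2, the methyltransferase itself, differed by -0.27 log2 with an adjusted p of 0.124.

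Of the TALE cofactors, Pbx2 stood at 1593, 1458 and 1520 against 2097, 2138 and 1808 normalized counts, a difference of -0.40 log2 with an adjusted p of 0.0142 in limma. Meis1 (-0.14 log2) and Meis2 (0.08 log2) had adjusted p-values of 0.363 and 0.703.

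Psip1, the tether of the MLL complex, differed by -0.37 log2 with an adjusted p of 0.0227 in limma, while Kmt2a, its methyltransferase, differed by -0.06 log2 with an adjusted p of 0.743. Among the signals, Rara, a retinoic acid receptor, fell from 2206, 2049 and 2083 to 1334, 1301 and 879 normalized counts, with a difference of -0.87 log2 and an adjusted p of 0.00333. Cyp26b1, the enzyme that breaks down retinoic acid in the fetal testis, fell from 3444, 3823 and 4058 to 2962, 2189 and 1882, with a difference of -0.71 log2 and an adjusted p of 0.012.

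These calls depend on how the spread was modelled. Without the trend and robust fitting, adjusted p-values of the genes named ran in limma from 0.0651 (Suz12) to 0.119 (Psip1), and none had an FDR below 0.05 in the authors' deposited table. With the trend over transcript length removed, Psip1 (0.0501) did not pass. Leaving out each library in turn, Suz12, Rybp and Rara passed 6 of 6 times, Cyp26b1 5, Pbx2 4 and Psip1 3 times.

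Of 8 ParaHox, Evx and Cdx genes, 7 were in the table and 3 had a level of at least 1, and none passed the moderated test in limma. Evx1, which lies beside the Hoxa cluster, was read 0, 1 and 0 times in Arid4bSCKO and 2, 0 and 2 times in control libraries. Cdx1 stood at 19.2, 28.7 and 27.6 against 27.6, 24.6 and 25.1 normalized counts, with overlapping groups.

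Markers of Sertoli cells and macrophages moved with the groups, and their part in the Hox values was not tested. Of 10 Sertoli cell markers, 5 fell (Dhh, Dmrt1, Gata4, Nr5a1 and Ptgds) and 1 rose (Cldn11) by the moderated test in limma, with a median of -0.62 log2. Over all tested genes 13.8% passed. The 8 recovered Sertoli cell markers summed to 18522 to 24515 normalized counts in Arid4bSCKO and 29416 to 30416 in control libraries. All 7 macrophage markers rose, with a median of 0.95 log2, and 6 of them summed to 2484 to 3477 against 1507 to 1771.

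Markers of the tissues next to the testis, which also express Hox genes, were present in both groups. The 7 mesonephric and epididymal markers summed to 658 to 731 normalized counts in Arid4bSCKO and 599 to 703 in control libraries, and 0 of 7 passed the moderated test in limma. Their median difference was -0.56 log2, with 5 negative and 2 positive, while Epcam, the most abundant of them, differed by 0.35 log2. Epcam stood at 426, 460 and 423 against 384, 334 and 312 normalized counts and so weighed heavily in the sums. The 4 mesothelial markers summed to 2091 to 3237 against 1547 to 2421, and 0 of 4 passed. Of the other lists, 1 of 6 germ cell markers (Dppa4) fell, 1 of 5 peritubular myoid markers (Tagln) rose and 1 of 5 interstitial stroma markers (Nr2f2) fell. Since 13.8% of all tested genes passed, 1 call in a list this short does not set it apart. The sums of 2 of these lists also lay apart between the groups. The 6 germ cell markers, 5 of them with a negative difference, summed to 5612 to 6918 against 6952 to 10368. The 3 recovered myoid markers, mostly Tagln, summed to 6533 to 7374 against 4342 to 4663. Their part in the Hox values was not tested either. None of 5 fetal Leydig cell, 4 endothelium and 2 erythroid markers passed. No marker found in the table was at 0.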

How the data were processed

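RNA from whole testes was converted to stranded poly(A) libraries and read from both ends, per the labels' protocols. STAR 2.4 and mm10 are listed in the submitters' processing notes. No source used here states the counting tool, its use of strand or the scaling method. The authors deposited 1 comparison of 22320 genes with, per gene, a p-value, an FDR, a log2 fold change of the group medians and the mean log2(normalized count + 1) of each group. The FDR equals a Benjamini-Hochberg adjustment of the deposited p-value over all genes, to a relative difference of 4.78e-05. Table starts count from 0 (82.7% of 4295 plus-strand genes began 1 base before the RefSeq start) and were moved by 1 base.

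Differences were taken as Arid4bSCKO less control on the deposited log2 scale, where changes of scarce genes come out too small. Its standard error and 95% interval were worked back from that p-value (4 residual degrees of freedom). The variances of the 19095 genes at a mean level of at least 1 were shrunk with limma 3.58.1 (squeezeVar, trend on level, robust) in R 4.3.3, and the median of the prior degrees of freedom was 7.46. Adjustment was by Benjamini-Hochberg over those genes, with a threshold of 0.05.

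Reads per library were worked back by a search over whole read counts. Of genes without a filled-in value, 85.2% had exactly 1 solution, 297 had several and 2921 had none. A further 529 rows held a filled-in value of 0.1 in 1 library and no reads, Hoxc12 among them. The largest gap between the deposited p and that of the recovered values was 1.33e-07. A library's group is known in this way, but not its replicate number. Levels per kb use the median transcript length of each gene. Counting error alone limits the scarce members.

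The members and all lists were chosen with earlier results of these data known. Values are given in full for any member past the moderated test, for the member of each cluster with the smallest p and for the 2 of the highest level in each. Other members named singly were chosen after their values were seen. Flanks are the 3 nearest named genes on each side at a level of at least 1. Rows with no Ensembl match and symbols of the Gm, Rik and accession kinds were passed over. The flanks lay up to 910.4 kb away (Nfe2l2). Alternatives were other level minimums, spread models, centrings, adjustments, a fit to the recovered values with limma, with and without each library, and voom on the recovered reads. A few members and listed genes count in the totals but are not reported here by name.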

Additional observations from a re-analysis of the deposited data

How the results depend on the processing

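The count of Hox genes past the moderated test in limma was 0 with these other settings: no level minimum or one of 3, no trend of the spread, adjustment over all genes, or centring on the median, on level or on transcript length. It was also 0 under the alternatives added after seeing the data, a fit to the recovered genes and voom under both scalings, and from 0 to 1 with each library left out in turn. The single call was Hoxb9 without Arid4bSCKO library 1. The share of all genes past each of these alternatives was not counted. The lowest adjusted p with all libraries was 0.068, for Hoxd1 with no trend of the spread. By the authors' FDR the count was 0, also when readjusted over genes at a level of 1 or 3, and by the unadjusted p it was 2. The median difference of 0.04 log2 ran from 0.02 to 0.14 under the other alternatives and from -0.08 to 0.07 with each library left out, so its sign is not settled.

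Hoxc13 and Hoxd1 were not tested at a level minimum of 3. Among the 12 members given in full, the following values moved. With each library left out in turn, Hoxa3 ran from -0.31 to 0.1057 log2, Hoxa9 from -0.0681 to 0.42 and Hoxc6 from -0.0012 to 0.0428. Hoxa3 and Hoxc6 turned without Arid4bSCKO library 1 and Hoxa9 without Control library 3. Hoxc6 was at -0.0306 with the length trend removed and at -0.0066 in voom scaled to total recovered reads. Hoxb9 was at 0.67 without Arid4bSCKO library 1 and at 0.19 without library 3, and Hoxc13 at -0.97 without Arid4bSCKO library 3. Hoxa5 was at -0.28 without Control library 2, Hoxb3 ran from 0.11 to 0.37 with each library left out, and Hoxd8 was at -0.18 without Arid4bSCKO library 1. The causes were not tested.

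No paired analysis was possible because the table holds group means and the recovered libraries carry no replicate number. Depth limits the scarce members, and of the 37 with known reads 11 had under 10 in every library.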

Other observations

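The spread between libraries differed widely among the Hox genes. An index compared the observed spread within groups with that of counting alone, and is near 1 where only counting varies. It had a median of 1.73 over the 25 recovered members at a level of at least 3. Over 11320 recovered genes in the same range of levels it was 2.76. Those genes were not matched to the members and as a whole stood at higher levels, where the index tends to be larger. The 2 medians therefore do not show that Hox genes varied less than like genes. Hoxc6 had the lowest index, 0.073, and Hoxb9 the highest, 11.9, followed by Hoxc10 at 6.28 and Hoxd9 at 4.94. With 3 libraries per group each index is imprecise, and none was tested.

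BC060302, a transcript between Hoxd10 and Hoxd9, was read 54, 18 and 37 times in Arid4bSCKO and 31, 42 and 40 times in control libraries. Its Arid4bSCKO libraries held both the highest and the lowest value, and its difference was -0.04 log2. AK039882 in the Hoxa cluster was read 8, 5 and 4 times against 2, 4 and 3 times, a difference of 0.86 log2 (95% interval -0.03 to 1.75) with an adjusted p of 0.288 by the moderated test in limma. Both were chosen after their values were seen.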
